A study of Rattus norvegicus with 12 samples.

Results

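The miR-181 family was followed in rat milk whey and serum through its 4 guide strands, rno-miR-181a, rno-miR-181b, rno-miR-181c and rno-miR-181d. They were taken by name from the 388 rat miRNAs of an Agilent 1-colour miRNA microarray, and all 4 were detected on at least 1 array. The array carries 1 other strand of the family, rno-miR-181a*, the partner of miR-181a, whose values are given beside those of its guide. A miRNA counted as detected on an array by the call of the scanner software, and 188 of the 388 miRNAs were detected on at least 1 array and entered the tests.

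RNA came from 3 F344/N rat dams, untreated apart from the oxytocin and anaesthesia used for milking. Whey was taken from each dam 2, 9 and 16 days after birth, and serum at day 21, so that there were 12 arrays in 4 groups of 3, and each rat stands once in every group. Whey is milk without fat, cells and casein, and day 2 whey is that of colostrum, the first milk. Each array received 70 ng of total RNA, so a signal is relative to RNA amount, and more of a miRNA cannot be told apart from less of the other RNA in a fluid. The arrays of days 2 and 9 lay on 1 slide and those of day 16 and serum on another. Thus only day 9 against day 2 and serum against day 16 were compared within a slide, and in the other 4 comparisons slide and group cannot be told apart. Fluid and day cannot be told apart in any serum comparison, since no whey was taken at day 21.

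miRNAs are short RNAs that guide Argonaute proteins to messenger RNAs, chiefly through pairing of the seed near their 5′ end. The miR-181 family is known above all from lymphocytes: in mice, miR-181a favours B cell development from blood progenitors and raises the sensitivity of developing T cells to antigen. Its guides come from paired genes that each yield an a and b, or a c and d, strand. In body fluids, miRNAs lie within vesicles and protein complexes released by cells.

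The mature sequences are shown because they set what the arrays can tell apart. Capitals mark the seed, bases 2 to 8, and sequences are those of RefSeq for the rat assembly GRCr8, where all 4 members were found.
rno-miR-181a: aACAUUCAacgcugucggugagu
rno-miR-181b: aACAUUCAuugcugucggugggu
rno-miR-181c: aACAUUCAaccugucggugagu
rno-miR-181d: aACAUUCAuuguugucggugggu
rno-miR-181a*: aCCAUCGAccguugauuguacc

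All 4 guides have the seed ACAUUCA, and of 693 mature rat miRNA names in the RefSeq table, only these 4 have it. Positions are counted from 1 at the 5′ end. miR-181b differs from miR-181a by A9U, C10U and A21G. miR-181d has these changes and C12U, and C12U is the 1 difference between miR-181b and miR-181d. miR-181c is 22 bases long against 23 for the others and consists of the first 10 and the last 12 bases of miR-181a. The partner strand miR-181a*, matched to rno-miR-181a-1-3p, has another seed, CCAUCGA.

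Each miRNA was read by 2 probes of different length, with 10 spots each, that pair with its 3′ part. The longer probe of each guide is printed 5′ to 3′, and capitals mark bases that differ from the complement of miR-181a with the 3′ ends of both miRNAs aligned.
rno-miR-181a probe: actcaccgacagcgt
rno-miR-181b probe: acCcaccgacagcA
rno-miR-181c probe: actcaccgacagGTtGAaT
rno-miR-181d probe: acCcaccgacaAcAAtg

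In the rn4 coordinates of the scanner files, the longer miR-181a probe lies at chr3:18650950-18650964 and again at chr13:51132539-51132553. The longer miR-181b probe lies at chr3:18652030-18652043 and chr13:51132722-51132735. Those of miR-181c and miR-181d lie at chr19:25667411-25667428 and chr19:25667584-25667599, and that of miR-181a* at chr13:51132575-51132592. The array signal of miR-181a or miR-181b is therefore the sum from both of its genes. In the RefSeq annotation of GRCr8, the chromosome 3 pair, Mir181a2 and Mir181b2, lies within the protein-coding gene Nr6a1, a nuclear receptor, and within a long non-coding RNA gene. The chromosome 13 pair, Mir181a-1 and Mir181b1, lies within another long non-coding RNA gene. Mir181c and Mir181d on chromosome 19 overlap no other annotated gene.

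Over all miRNAs, summed signals ran from 21620 to 25457 on the day 2 arrays, from 70020 to 106279 on those of day 9, from 76070 to 119402 on those of day 16 and from 89211 to 160603 on the serum arrays. Signals were therefore quantile normalized over the 12 arrays, and the values without normalization are given where they change a call. Without normalization the median change of the 188 tested miRNAs, on the log2 scale, was 1.13 for day 9 against day 2, 1.28 for day 16 against day 2 and 0.13 for day 16 against day 9. For serum it was 1.85 against day 2, 0.98 against day 9 and 0.90 against day 16, and with normalization all 6 medians lay between -0.20 and 0.13. Markers of the fluids differed in the direction of the labels, apart from miR-142-3p and the undetected miR-144. The 5 miRNAs of the epithelial list (the miR-200 family with miR-141) summed to 1800 to 11000 in whey and to 154 to 565 in serum, where 4 of the 5 were detected. The red cell miRNA miR-451 was at 12000 to 27700 in serum and at most 9.97 in whey, with 1 of 9 whey arrays detecting it, and miR-144 was detected on no array. The liver miRNA miR-122 was at 1420 to 2030 in serum and detected on 0 of 9 whey arrays, and miR-126 of endothelium and platelets at 107 to 170 and on 0 of 9. The myeloid miRNA miR-223 was at 6170 to 8760 in serum and at 23.9 to 588 in whey. The 3 lymphocyte markers (miR-150, miR-142-3p and miR-142-5p) summed to 421 to 504 in serum and to 32.6 or less in whey. Most of the serum sum was miR-150, at 366 to 469. The fluids overlapped for miR-142-3p, with 13.7 to 17.5 in serum and 4.035 to 22.55 in day 16 whey, where 2 arrays detected it. The part of these cells in the values of the family was not tested.

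miR-181a was detected on all 12 arrays, was bright in whey and lay near the background limit in serum. Its total signal as scanned, in the intensity units of the scanner software, was 41.2, 67.2 and 59.2 in day 2 whey of rats 1, 2 and 3. In day 9 whey it was 132, 149 and 193, and in day 16 whey 107, 225 and 143. In serum it was 14.9, 18.3 and 10.1, so every serum array was below every whey array.

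After normalization the log2 signal of miR-181a was 7.29 ± 0.13 (SD, n = 3) in day 2 whey, 7.67 ± 0.35 in day 9 whey, 7.31 ± 0.03 in day 16 whey and 3.07 ± 0.19 in serum. The whey days, neighbours in this order, did not differ beyond the test's threshold. The serum mean was below 3.36, the mean background limit of the serum arrays. For each array this limit is the lowest signal of any miRNA for which a share of 0.5 or more of the spots was well above background, so the difference of serum is given as a bound.

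The partner strand miR-181a*, which is usually degraded when the guide is loaded, was detected on 6 of 12 arrays, all of them of mature milk whey. Its total signal was 13.2, 24.1 and 16.7 in day 9 whey and 13.5, 33.5 and 22.1 in day 16 whey. In day 2 whey it was 3.40, 4.40 and 2.75, and in serum 6.50, 7.97 and 0.42, with no detection in either group. Normalized log2 signals were 4.39 ± 0.07 (SD, n = 3) on day 9 and 4.56 ± 0.21 on day 16. Day 9 and day 16 thus overlapped, and both lay above all arrays of day 2 whey and serum.

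miR-181b, made from the same paired genes as miR-181a, was dim. Its total signal was 6.05, 12.6 and 8.44 in day 2 whey, where the arrays of rats 2 and 3 detected it. It was 2.66, 5.95 and 6.44 in day 9 whey and -0.47, 6.07 and 4.92 in day 16 whey, and none of these 6 arrays detected it. In serum it was 10.2, 13.1 and 4.15, with detection in rat 2 alone.

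Normalized log2 means of miR-181b were 4.15 ± 0.38 (SD, n = 3) in day 2 whey, 2.42 ± 0.65 in day 9 whey, 1.41 ± 1.22 in day 16 whey and 2.43 ± 0.29 in serum. All 4 means were below the background limits of their groups, which were 5.37, 4.46, 4.36 and 3.36. The error that the scanner software gave for its 12 signals was 2.73 to 4.00 intensity units.

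miR-181c, from the chromosome 19 pair, was detected on all 12 arrays. Its total signal was 29.3, 42.5 and 44.8 in day 2 whey, 37.1, 55.7 and 41.9 in day 9 whey, and 25.1, 53.6 and 39.5 in day 16 whey. In serum it was 38.0, 25.5 and 16.0, so that as scanned the fluids overlapped. After normalization it was ordered, with 6.67 ± 0.28 (SD, n = 3) in day 2 whey, 5.98 ± 0.13 in day 9 whey, 5.49 ± 0.04 in day 16 whey and 3.93 ± 0.23 in serum. No pair of these groups overlapped, but days 9 and 16 did not differ by the test.

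miR-181d, its neighbour, was brighter in serum than on any whey array. Its total signal in serum was 41.7, 32.6 and 24.7, with detection in all 3 rats. In day 2 whey it was 4.97, 10.3 and 7.57 and in day 9 whey 6.66, 8.85 and 12.4, each with detection in rats 2 and 3. In day 16 whey it was 3.00, 9.60 and 8.18, and no array detected it. Every serum array lay above every whey array, both as scanned and after normalization.

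The normalized log2 signal of miR-181d was 4.31 ± 0.11 (SD, n = 3) in serum, 3.78 ± 0.29 in day 2 whey, 3.47 ± 0.44 in day 9 whey and 2.71 ± 0.42 in day 16 whey. Neighbours in this order did not differ by the test. Its whey means all lay below the background limits. With detection on at least 1 array required, day 2 whey held all 4 guides, day 9 whey 3, day 16 whey 2 and serum 4. With all 3 arrays required, each whey day held 2, miR-181a and miR-181c, and serum 3. Of all miRNAs on the array, 109 to 125 were detected per array in day 2 whey and 121 to 136 in day 9 whey. In day 16 whey these were 122 to 140, and in serum 145 to 165. The whey counts of guides differed only through the dim miR-181b and miR-181d. For miR-181d, the day 16 array of rat 2 was not called at 9.60, while the day 9 array of rat 2 was called at 8.85.

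**Figure D1:**
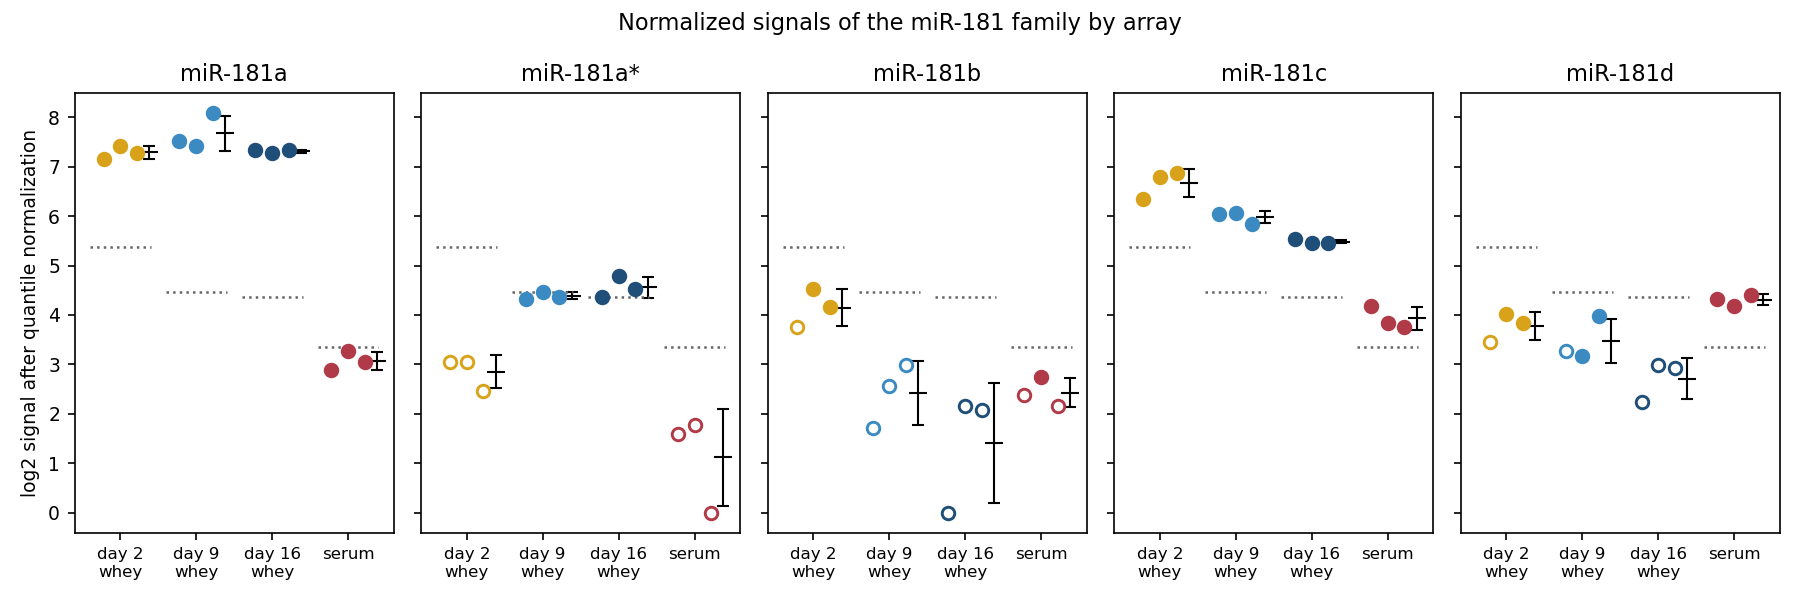
Quantile normalized log2 signals of the 4 guides and miR-181a* (y axis) in the 4 groups (x axis), 1 circle per array with rats 1 to 3 from left to right, filled where detected. Bars are the mean ± SD of 3 arrays and dotted lines the mean background limit of a group. miR-181a has means of 7.29 or more in whey and 3.07 in serum, while miR-181d has its highest mean, 4.31, in serum. Levels of different miRNAs are not comparable, since their probes differ.

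**Figure D2:**
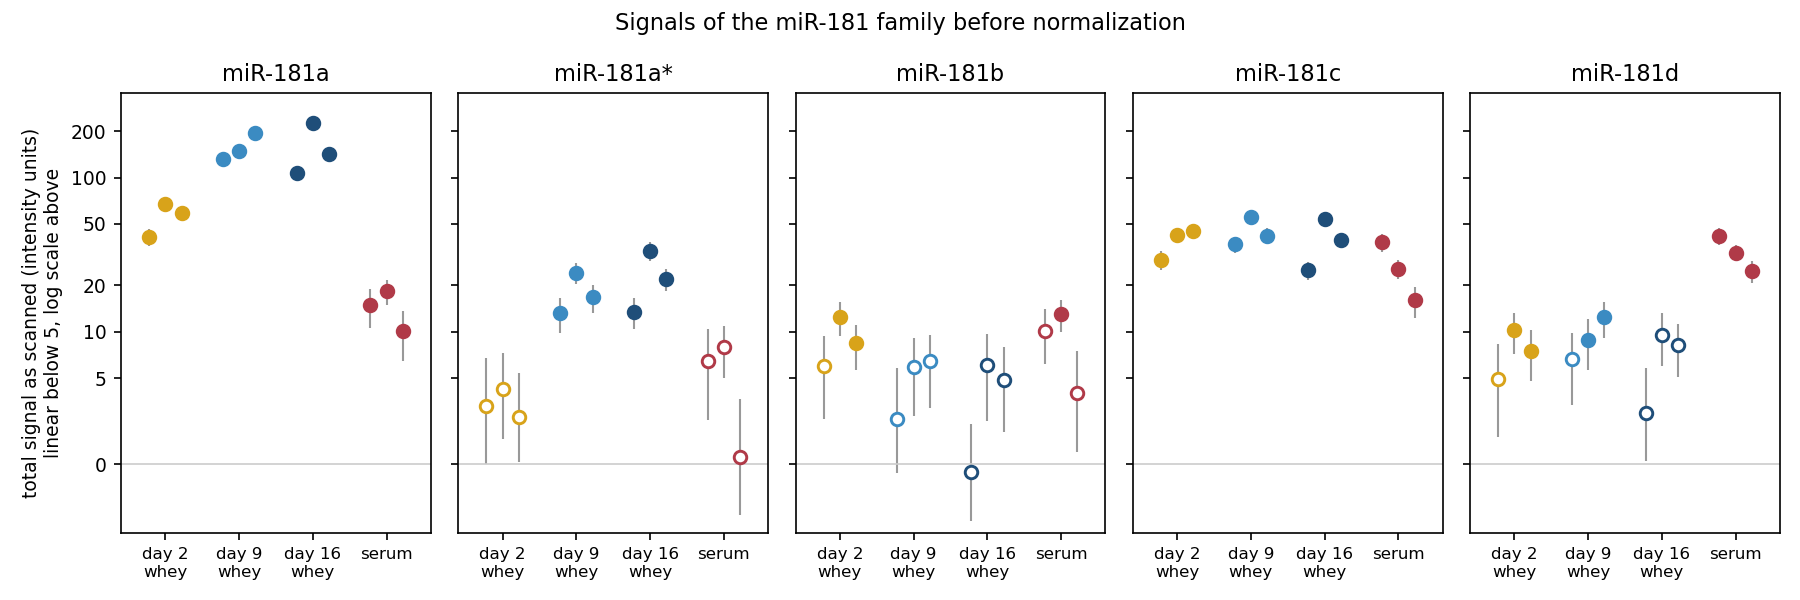
Total signals as scanned, before normalization (y axis, intensity units, linear below 5 and logarithmic above), by group (x axis), 1 circle per array with rats 1 to 3 from left to right, filled where detected. Grey bars are the error given by the scanner software. Serum arrays of miR-181d lie at 24.7 to 41.7 and all whey arrays at or below 12.4, whereas the fluids overlap for miR-181c.

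The probe pairs gave the same order of fluids for miR-181a and miR-181d, and levels of different probes were not compared. The longer miR-181a probe had a mean signal of 46.7 in day 2 whey, 137 in day 9 whey, 135 in day 16 whey and 14.3 in serum, where 20 of its 30 spots were well above background. The shorter one had 9.19, 20.6, 23.0 and 0.12, with 1 of 30 serum spots well above background. Both were higher in every whey array than in any serum array.

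For miR-181d the longer probe had a mean signal of 25.9 in serum against 6.66, 8.25 and 5.51 on days 2, 9 and 16, and 29 of 30 serum spots were well above background. The shorter probe had 7.10 in serum against 0.95, 1.05 and 1.41 in whey, with 2 of 30 serum spots well above background. No probe of miR-181d had more than 4 of 30 spots well above background in a whey group.

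For miR-181c the mean log2 signal without normalization changed by 0.31 in the longer probe and by -0.07 in the shorter one from day 2 to day 9. Between day 16 whey and serum the values were -0.48 and -0.97.

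The longer miR-181b probe averaged 7.54, 4.93 and 3.59 in whey of days 2, 9 and 16 and 7.03 in serum, and the shorter one 1.48, 0.083, -0.082 and 2.09. At most 5 of the 30 spots of the longer probe in a group were well above background, and the shorter probe had 0 of 30 in each group.

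The probes of miR-181b and miR-181d are close in sequence. Against miR-181d the longer miR-181b probe has 1 mismatch, and against miR-181b both miR-181d probes have 1. Against miR-181a, the brighter guide in whey, the shorter miR-181b probe has 1 mismatch and the longer 2. The longer miR-181a probe has 2 mismatches with miR-181c, 3 with miR-181b and 4 with miR-181d. Binding of a member to the probes of another was not tested.

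**Figure D3:**
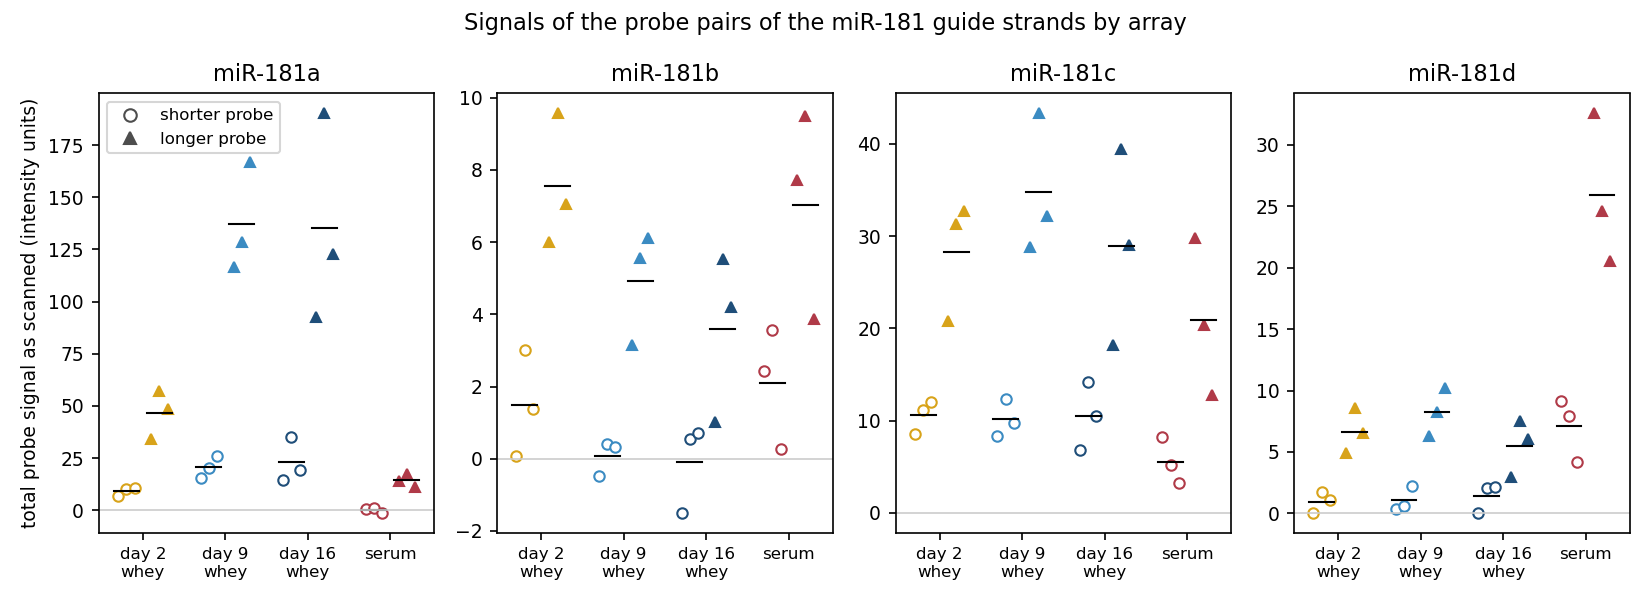
Total signal of each probe as scanned (y axis, intensity units, with a scale of its own in each panel) in the 4 groups (x axis) for the 4 guides. Open circles are the shorter and triangles the longer probe of a guide, 1 mark per array, and black lines the mean of 3 arrays. Serum means of miR-181d are 25.9 and 7.10, above the whey means of the same probe.

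The comparison of the whey days asked how the family changes from colostrum to mature milk. Between days 2 and 9, on 1 slide, miR-181c and miR-181b fell, miR-181a* rose, and miR-181a and miR-181d did not pass the test. miR-181c fell by 0.69 on the log2 scale (SE 0.16, adjusted p = 0.0049), a 1.61-fold decrease. After normalization it was lower in all 3 rats, but as scanned it was higher on day 9 in 2 of them. miR-181b fell by 1.73 (SE 0.56, adjusted p = 0.030), but it was undetected on day 9 and its means on both days were below the background limits, so no fold can be given. miR-181a had a change of 0.39 (SE 0.17, adjusted p = 0.097) and miR-181d of -0.30 (SE 0.27, adjusted p = 0.41). These are limma tests with Benjamini-Hochberg adjustment over the 188 miRNAs.

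Among all 188 miRNAs, 28.2% were called higher and 17% lower on day 9, against 0 of 4 and 2 of 4 guides. The median change of the 4 guides was -0.50 and that of all tested miRNAs 0.08. The partner miR-181a* rose by 1.54 (SE 0.40, adjusted p = 0.010). As no day 2 array detected it and the day 2 background limit was above its day 9 mean, no least fold can be given after normalization. As scanned it was at least 1.03-fold higher.

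Between days 2 and 16, on different slides, 3 of the 4 guides fell and none rose, against 22.9% of all miRNAs called lower and 32.4% higher. miR-181c fell by 1.18 (SE 0.16, adjusted p = 0.00017), a 2.27-fold decrease. It was seen in all 3 rats after normalization and in 2 as scanned. miR-181b fell by 2.74 (SE 0.56, adjusted p = 0.0022) and miR-181d by 1.06 (SE 0.27, adjusted p = 0.0070), both to undetected on day 16 and with no fold to be given. miR-181a had a change of 0.028 (SE 0.17, adjusted p = 0.96). miR-181a* rose by 1.71 (SE 0.40, adjusted p = 0.0052), as scanned at least 1.27-fold. The median of the 4 guides was -1.12, beside 0.13 for all tested miRNAs.

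These calls depended on the normalization. Without it miR-181a was higher by 1.51 on day 9 (SE 0.34, adjusted p = 0.0032) and by 1.47 on day 16 (SE 0.34, adjusted p = 0.0033), beside median shifts of 1.13 and 1.28 over all miRNAs. miR-181c then had changes of 0.21 (adjusted p = 0.71) and -0.02 (adjusted p = 1), miR-181b of -0.89 (adjusted p = 0.31) and -1.48 (adjusted p = 0.088), and miR-181d of 0.31 and -0.24, none of which passed. The changes of miR-181b, miR-181c and miR-181d lay below the median of all tested miRNAs on both mature milk days with and without normalization, but a fall was called only with it. miR-181a* passed both ways, with 2.34 (adjusted p = 0.014) and 2.64 (adjusted p = 0.0073) without normalization. The day 9 call of miR-181b was also lost without the day 2 array of rat 2 or 3 or the day 9 array of rat 1 or 2, with values of -1.53, -1.72, -1.38 and -1.78.

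Between days 9 and 16 no guide passed, while 4.26% of all miRNAs were called higher and 3.19% lower. miR-181a changed by -0.36 (SE 0.17, adjusted p = 0.24) and miR-181b by -1.01 (SE 0.56, adjusted p = 0.31). The values were -0.49 for miR-181c (SE 0.16, adjusted p = 0.089) and -0.76 for miR-181d (SE 0.27, adjusted p = 0.095), with unadjusted values of 0.012 and 0.018. The change of miR-181a* was 0.17 (SE 0.40, adjusted p = 0.97). The median of the 4 guides was -0.63 beside 0 for all tested miRNAs. Of these guides, miR-181b was undetected on both days and miR-181d on day 16. The means of both lay below the background limits on both days.

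The comparison with serum asked whether the family in whey resembles that in blood of the same dams. Within the slide shared by day 16 whey and serum, miR-181a and miR-181c were lower in serum and miR-181d was higher. miR-181a fell by 4.25 (SE 0.17, adjusted p = 7.8e-09), which is at least 14.5-fold lower after normalization and at least 8.61-fold as scanned. miR-181c fell by 1.55 (SE 0.16, adjusted p = 8.3e-06), a 2.94-fold difference. miR-181d rose by 1.60 (SE 0.27, adjusted p = 0.0003), with no least fold after normalization, since the serum mean lay below the day 16 limit, and at least 1.65-fold as scanned. miR-181b had 1.01 (SE 0.56, adjusted p = 0.13). After normalization each of the 3 called guides was the same way in all 3 rats. As scanned this held for miR-181a and miR-181d, whereas miR-181c was lower in serum in 2 rats.

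Against day 16 whey, 36.2% of all miRNAs were called higher in serum and 38.8% lower, against 1 and 2 of the 4 guides. The called guides did not share a direction. miR-181a* was lower in serum by at least 2.30-fold (log2 change -3.44, SE 0.40, adjusted p = 2.2e-05).

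Against day 9 whey 1 guide was higher in serum, beside 36.2% of all miRNAs, and 2 were lower, beside 38.3%. miR-181a was at least 18.7-fold lower (log2 change -4.61, SE 0.17, adjusted p = 5.4e-09) and miR-181c 4.13-fold lower (-2.05, SE 0.16, adjusted p = 1.1e-06). miR-181d was higher by 0.84 (SE 0.27, adjusted p = 0.016), but without the day 9 array of rat 1 or of rat 2 the adjusted p was 0.058 or 0.070. For miR-181b the value was 0.0024 (SE 0.56, adjusted p = 1). miR-181a* was at least 2.04-fold lower (adjusted p = 3.6e-05).

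Against day 2 whey 3 guides were lower in serum beside 43.1% of all miRNAs, and none was higher beside 39.9%. miR-181a was at least 14.3-fold lower (log2 change -4.22, SE 0.17, adjusted p = 9.7e-09), and miR-181c 6.67-fold lower (-2.74, SE 0.16, adjusted p = 1.4e-07). miR-181b fell by 1.73 (SE 0.56, adjusted p = 0.016), with both means below the background limits and no fold to be given. miR-181d had 0.54 (SE 0.27, adjusted p = 0.086). miR-181a* fell by 1.73 (SE 0.40, adjusted p = 0.0028), with both groups undetected. The 3 comparisons with whey share the serum arrays. The medians of the 4 guides were -0.27 against day 16, -1.02 against day 9 and -2.23 against day 2, beside 0.11, 0.0012 and -0.20 for all tested miRNAs.

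Without normalization miR-181a remained lower in serum, by -1.97 (adjusted p = 0.00031), -3.48 (adjusted p = 5.1e-06) and -3.43 (adjusted p = 5e-06) against days 2, 9 and 16. miR-181d was then higher in all 3 comparisons, by 2.15 (adjusted p = 0.0015), 1.84 (adjusted p = 0.0045) and 2.38 (adjusted p = 0.00077). miR-181c no longer passed, with -0.62, -0.83 and -0.59, and adjusted p of 0.16, 0.065 and 0.17. Against day 2, miR-181b had -0.074 (adjusted p = 0.94) and miR-181a* 0.11 (adjusted p = 0.91), so that both calls were lost and the direction of miR-181a* turned. Neither miR-181a nor miR-181d changed direction in a serum comparison under any scaling or background correction tried.

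**Figure D4:**
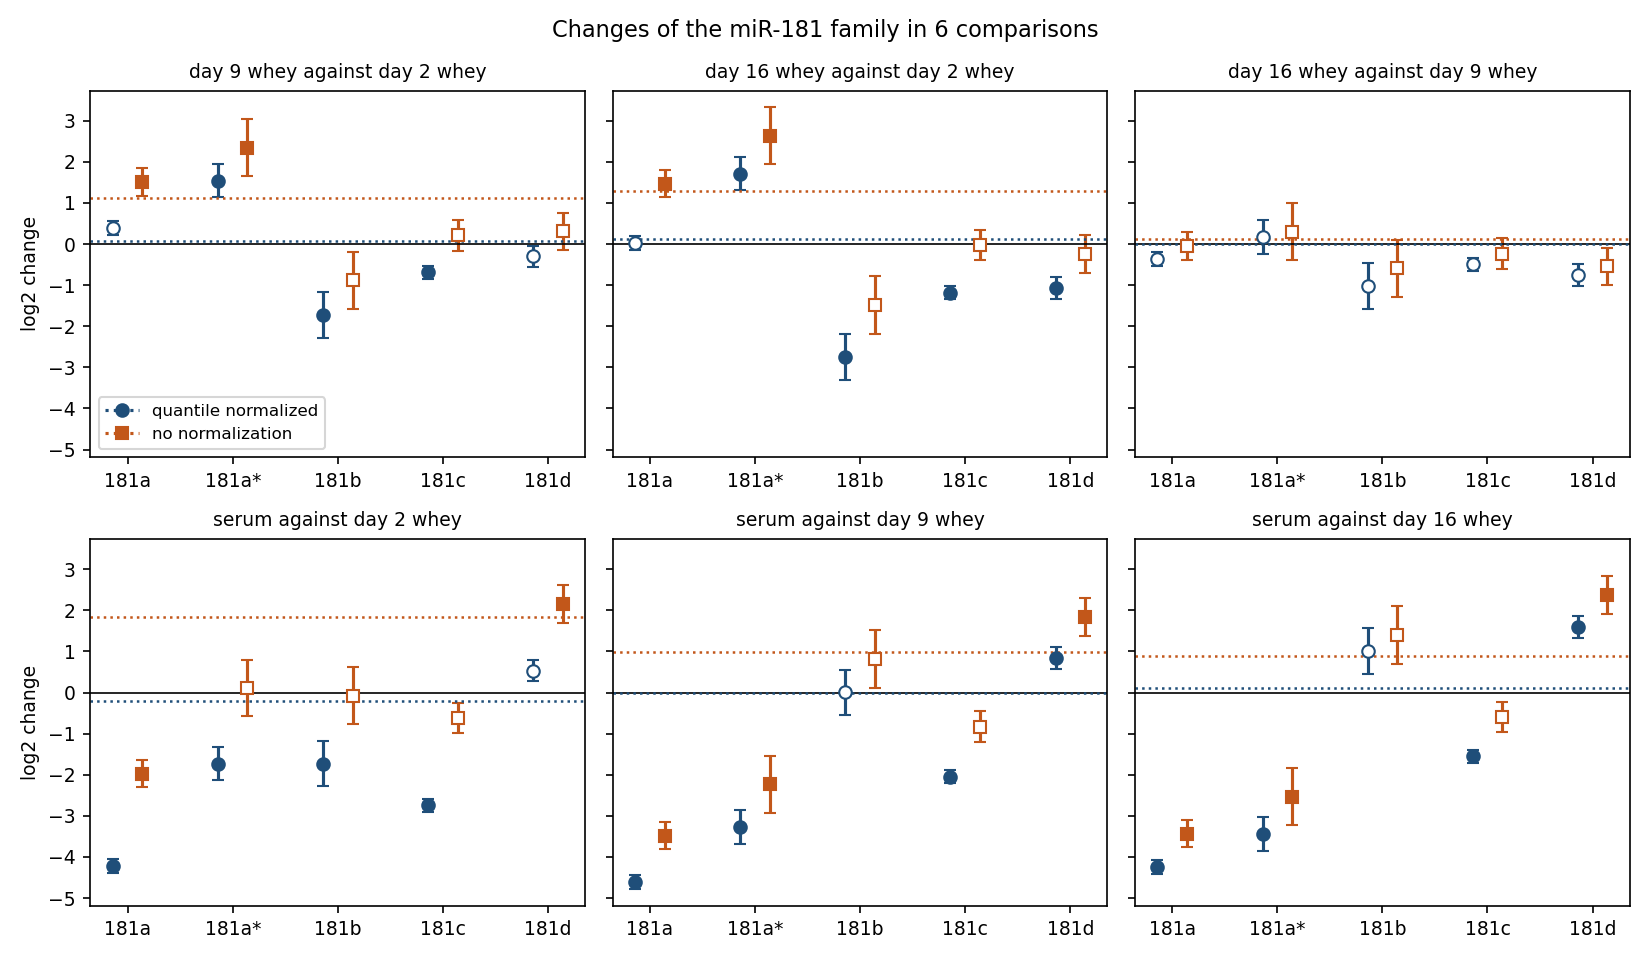
Log2 change (y axis) of the 4 guides and miR-181a* (x axis) in the 6 comparisons, with bars of ± SE from limma. Blue circles are quantile normalized and orange squares without normalization, filled at an adjusted p under 0.05, and dotted lines of the same colour mark the median of the 188 tested miRNAs. Serum against day 16 whey shows miR-181a at -4.25 and miR-181d at 1.60.

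Over all tested miRNAs, the balance of higher and lower calls also differed with and without normalization. On day 9 against day 2, 53 miRNAs were higher and 32 lower, and without normalization 93 and 12, while for day 16 against day 2 these were 61 and 43, and 104 and 15. For serum against days 2, 9 and 16 they were 75 and 81, 68 and 72, and 68 and 73, and without normalization 117 and 25, 99 and 41, and 86 and 47. Scaling to the 75th percentile gave 87 and 53 against day 9 and 81 and 58 against day 16.

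Whether miR-181a and miR-181c changed unequally was tested on the difference of their log2 signals within each array, the 1 pair detected on every array, by an exact two-sided permutation test in the 6 comparisons. The change of miR-181a exceeded that of miR-181c by 1.08 from day 2 to day 9 and by 1.21 from day 2 to day 16. In both the arrays of the groups did not overlap (exact p = 0.10, adjusted p = 0.12 over 6 tests). For this test 0.10 is the smallest p that 3 against 3 arrays can give. It permutes arrays as if independent and does not use the pairing by rat. From day 9 to day 16 the difference was 0.13 (exact p = 0.70). For serum against days 2, 9 and 16 the differences were -1.48, -2.56 and -2.69, with miR-181a falling more, and again no overlap (exact p = 0.10 each). Without normalization these 6 values were 1.30, 1.49, 0.19, -1.35, -2.65 and -2.84.

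The miRNAs with patterns most like those of the guides were named by Pearson's r of normalized log2 signals over the 12 arrays, as a description. The arrays share 3 rats, and the serum arrays lie apart from whey, so that r mainly describes this gap. For miR-181a they were miR-141 (r = 0.99, Spearman's rho 0.56), miR-200c (r = 0.99, rho 0.68) and miR-322 (r = 0.99, rho 0.52). miR-141 and miR-200c are miRNAs of epithelia. The mean log2 signal of miR-200c was 11.7, 11.8 and 11.9 in whey of days 2, 9 and 16 and 5.24 in serum. For miR-181c they were miR-101a (r = 0.93, rho 0.87), miR-183 (r = 0.93, rho 0.93) and miR-365 (r = 0.92, rho 0.78).

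For miR-181d they were 3 miRNAs of the miR-17 family, which promotes cell cycling: miR-17-5p (r = 0.90, rho 0.96), miR-93 (r = 0.86, rho 0.96) and miR-106b (r = 0.85, rho 0.82). The mean log2 signal of miR-17-5p was 5.96, 5.85 and 4.93 in whey of days 2, 9 and 16 and 7.18 in serum. The normalized means of miR-181d have this order, but its whey means lie below the background limits. As scanned, its mean was 7.61 in day 2 whey and 9.30 in day 9 whey. miR-181b was detected on 3 arrays and was not used here.

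Since the family is known from lymphocytes, it was set beside 11 other miRNAs of these cells, of which 10 were on the array and tested. Against day 16 whey 9 of the 10 were higher in serum and none lower, with a median of 2.24 beside 0.11 for all miRNAs and 36.2% called higher. The lymphocyte miRNA miR-150 was at 366 to 469 in serum and detected on 0 of 9 whey arrays, where its signal was at most 1.35. miR-18a was higher by 4.37 (SE 0.26, adjusted p = 1.3e-07), miR-92a by 3.63 (SE 0.23, adjusted p = 2.1e-07) and miR-142-5p by 3.15 (SE 0.63, adjusted p = 0.0011). No array of day 16 detected miR-142-5p, and its serum mean of 4.1 was below the day 16 background limit, so no fold can be given. The day 16 mean of miR-18a, 3.37, was also below that limit. Of the guides, miR-181d alone had this direction past the threshold.

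On day 16 against day 2, 6 of the 10 fell and 2 rose, beside 22.9% of all miRNAs called lower and 32.4% higher, with a median of -0.98 beside 0.13 for all. The 6 were miR-17-5p, miR-18a, miR-19a, miR-19b, miR-20a and miR-92a, all of the miR-17-92 cluster. No listed miRNA outside this cluster was called lower. miR-142-3p was undetected on day 2 and rose by 2.80 (SE 0.46, adjusted p = 0.00066). Its means on both days were below the background limits, so no fold can be given. miR-146a, which is induced in inflammation, rose by 1.95 (SE 0.35, adjusted p = 0.0010). Its day 2 mean of 4.38 was below the day 2 background limit of 5.37, so the size of this rise is uncertain. Of the miR-17-92 cluster, miR-19b and miR-19a fell by 1.82 (SE 0.12, adjusted p = 1.2e-06) and 1.36 (SE 0.10, adjusted p = 4.2e-06). Without normalization 2 rose and none fell, beside 104 higher and 15 lower of all 188 miRNAs. On day 9 against day 2, 4 fell and 2 rose, beside 17% and 28.2% of all. From day 9 to day 16, 3 fell and none rose, beside 3.19% and 4.26%. Serum against day 9 had 8 higher and none lower, beside 36.2% and 38.3%, and serum against day 2 had 7 higher and 3 lower, beside 39.9% and 43.1%. In these comparisons too, every listed miRNA called lower was of the miR-17-92 cluster.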

How the data were processed

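The authors labelled 70 ng of total RNA per sample with Cy3 for the Agilent rat miRNA array and deposited the scanner output of Agilent Feature Extraction 9.5.3.1. Its intensity values are background-subtracted total signals per miRNA, summed over probes and not normalized between arrays, with flags for detection. Signals were quantile normalized over 12 arrays, values under 1 were set to 1, and log2 was taken. A mean per group was fitted to all 12 arrays in limma 3.58.1 (R 4.3.3, lmFit and eBayes), two-sided, with Benjamini-Hochberg adjustment over the 188 miRNAs detected on at least 1 array and calls at an adjusted p under 0.05. The fit was tested on simulated data. The precision is limited by 3 arrays per group. A bound ("at least") sets the bright mean against the higher of the dim signal and the background limit on each array. A deposited table of normalized values, whose 12 columns match no sample label, and a table of rounded spot signals were not used.

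By the labels the same rats gave all groups. Deviations from group means correlated by -0.07 to 0.43 (median 0.04) over 18 pairs of arrays of the same rat, against a median of -0.03 for different rats. Members and lists were chosen with earlier results of these data known. Named miRNAs were the 4 guides, other strands named miR-181, the 3 miRNAs most like each guide detected on at least 6 arrays, and up to 4 of the lymphocyte list with the largest called change. Alternatives covered scaling, background correction, floor, filter, probe choice, the fitted model and leaving out each array.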

Additional observations from a re-analysis of the deposited data

How the results depend on the processing

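Of 12 alternatives beside the leaving out of arrays, scaling and background correction moved the members most. Without normalization, from day 2 to day 9 miR-181a changed by 1.51, miR-181b by -0.89, miR-181c by 0.21 and miR-181d by 0.31, and from day 2 to day 16 by 1.47, -1.48, -0.024 and -0.24. Serum against day 2 then gave 0.11 for miR-181a*, -0.074 for miR-181b, -0.62 for miR-181c and 2.15 for miR-181d, and miR-181c had -0.83 and -0.59 against days 9 and 16. With normexp correction miR-181a rose by 0.85 on day 9 and 0.69 on day 16, and miR-181c had -0.087, -0.082 and, from day 9 to day 16, 0.0050. Scaling to the 75th percentile called miR-181d from day 2 to day 9 (-0.90) and not miR-181a* (1.13), which Tukey-Kramer adjusted over all miRNAs also did not call (1.54). With the brightest probe, miR-181a had -0.073 from day 2 to day 16, miR-181c and miR-181d were called from day 9 to day 16 (-0.65 and -0.81), and in serum miR-181d was higher than on day 2 by 0.52 and miR-181b had -0.38 against day 9. Fits of the compared arrays alone called miR-181c from day 9 to day 16 (-0.49) and miR-181d in serum against day 2 (0.54). A floor of 5 gave -0.15 for miR-181b in serum against day 9. The day 9 fall of miR-181b (-1.73) lost its call without the filter and by the methods' Tukey-Kramer test, adjusted or not, as did miR-181b in serum against day 2 (-1.73) and miR-181d in serum against day 9 (0.84) by that test. From day 9 to day 16, 14 miRNAs were called, but 0 without normalization, 22 with a floor of 5, and by Tukey-Kramer 22 unadjusted and 1 adjusted. Detection on all 3 arrays left 2 guides in day 2 whey. With rat as replicate block the 85 calls from day 2 to day 9 stayed 85, miR-181c was at -0.69 (adjusted p = 0.015), and no call of a member changed. The causes of these changes were not tested.

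Leaving out each array in turn gave, from day 2 to day 9, 0.19 to 0.51 for miR-181a (called without rat 2 of day 9) and -1.99 to -1.38 for miR-181b (not called without rat 2 or 3 of day 2, or rat 1 or 2 of day 9). From day 2 to day 16 miR-181a ranged from -0.034 (without rat 1 of day 2) to 0.096, and from day 9 to day 16 miR-181c from -0.57 to -0.46 (called without rat 1 of day 2) and the count of calls from 8 (without rat 1 of day 9) to 20. In serum against day 2, miR-181b ranged from -1.92 to -1.53 (not called without rat 2 of day 2 or rat 3 of serum) and miR-181d from 0.38 to 0.66 (called without rat 3 of day 9). Against day 9, miR-181b ranged from -0.35 to 0.27, negative without any 1 of 5 arrays, and miR-181d from 0.67 to 1.11 (not called without rat 1 or 2 of day 9). miR-181a* from day 2 to day 9 ranged from 1.34 to 1.63, and its call was lost without rat 3 of day 2 (1.34, adjusted p = 0.051). Of 354 values of the guides and miR-181a* under the alternatives that leave out no array, 317 kept their direction and side of the threshold. Signals near the background limit restrict what can be said of miR-181b and of miR-181d in whey, and miR-181b had no value where detection on all 3 arrays of a group was required.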
